A study of Homo sapiens with 3 samples.

Results

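FAM155A, now also called NALF1, had the largest mean share of the reads in listed CSTF2tau peaks of any gene ID in these libraries. The gene was chosen by this mean share, so that share is a description and no test was made of it. Its peaks are the listed lines whose name carries ENSG00000204442. There were 2366 of them among 202310 listed peaks, namely 1390 in replicate 1, 351 in replicate 2 and 625 in replicate 3. The name was checked only through the gene label, because the lists hold IDs without symbols.

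The single group consisted of 3 biological replicates of wild-type BE(2)-C cells, an established clonal human neuroblastoma line, with no added treatment. RNA crosslinked to CSTF2tau by ultraviolet light was partly digested, recovered with an antibody against CSTF2tau and sequenced (sCLIP). No input, control antibody or CSTF2tau-depleted library was used here, so FAM155A was set against other gene IDs of the same libraries. All values come from 1 cell line.

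CSTF2tau is a paralogue of CSTF2, which is the subunit of the cleavage stimulation factor that binds RNA. The factor recognises U-rich and GU-rich RNA downstream of polyadenylation signals and helps to cleave the nascent transcript at its 3' end. FAM155A encodes a membrane protein that acts as an auxiliary subunit of NALCN, the sodium leak channel that helps to set the resting excitability of neurons, together with UNC79 and UNC80. The gene is very long, and most of its primary transcript is intron. NALCN, UNC79, UNC80 and the related FAM155B were not analysed here, because none of the gene IDs could be paired with a symbol, and the same holds for markers of the cell line.

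A listed peak is a stretch of RNA with a p-value below 0.05 given by the authors. The whole number at the end of its name was read as the reads in the peak, a reading that no source states. The lists held 736059, 108434 and 387784 such reads in replicates 1, 2 and 3, which cover listed peaks only and are not the sequencing depth. Intervals below are exact Clopper-Pearson intervals at the 95% level and cover counting error only. Coordinates are hg19.

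The 5' end of the gene carried most of the signal, and the 3' end almost none. FAM155A held 12990 reads in replicate 1, 2770 in replicate 2 and 6178 in replicate 3. These were 1.76% (95% interval 1.73 to 1.80%), 2.55% (2.46 to 2.65%) and 1.59% (1.55 to 1.63%) of all listed reads, with a mean of 1.97% ± 0.513 (SD, n = 3). The gene ID ranked next, ENSG00000185565, had a mean of 1.61% ± 0.380, and the ID ranked after it, ENSG00000157168, had 0.555%. The latter was listed only in replicate 1, where it had 1.66% of the reads. More transcripts and more binding per transcript cannot be told apart in these data.

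All FAM155A peaks lay on the minus strand between chr13:107821338 and chr13:108518283, a listed span of 697 kb. The first peak at the 5' edge lay at chr13:108518192-108518265 in replicate 1 with 13 reads and at chr13:108518210-108518283 in replicate 3 with 12 reads. In replicate 2 it lay 718 nt from the edge, with 3 reads. The 3' edge was set by a peak of 5 reads in replicate 1, and the last peaks of replicates 3 and 2 lay 13648 and 41046 nt short of it. The edges are thus those of listed peaks, not annotated transcript ends. Peaks were not assigned to exons or introns, since no hg19 annotation was used here.

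The span was divided into 14 windows of 50 kb counted from the 5' edge, the last of them 46.9 kb. The first window held 18.3%, 12.2% and 14.6% of the gene's reads in replicates 1, 2 and 3, with a mean of 15.0% ± 3.10 (SD, n = 3). The next windows held 13.4% ± 3.25, 16.5% ± 2.26 and 17.3% ± 6.33. The replicates differed in order here. Replicate 1 was lower at each step, with 15.1%, 14.9% and 14.7% after the first window, replicate 3 had 15.4%, 15.4% and 12.7%, and replicate 2 had 9.64%, 19.1% and 24.5%. From there each window had a lower mean than the last, with 11.1% ± 1.42 at 200 to 250 kb, 8.39% ± 0.942, 6.62% ± 1.63, 4.76% ± 1.00 and 4.41% ± 0.991 at 400 to 450 kb. Single replicates departed from this order, such as replicate 1 with 8.07% at 250 to 300 kb and 8.41% at 300 to 350 kb. The windows beyond 450 kb had means of 1.08% or less.

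The 3 replicates shared this shape. The first 200 kb held 63.1%, 65.4% and 58.1% of the reads, the stretch from 200 to 450 kb held 33.9%, 34.2% and 37.6%, and everything beyond held 3.00%, 0.397% and 4.31%. By number of peaks the contrast was as plain. Replicate 1 had 4.60 peaks per kb in the first 200 kb, 1.74 from 200 to 450 kb and 0.138 beyond. Replicate 2 had 1.12, 0.500 and 0.00810 peaks per kb, with 2 peaks in all beyond 450 kb. Replicate 3 had 1.71, 0.968 and 0.166.

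The reads reached 50% of their total at 157, 183 and 177 kb from the 5' edge in replicates 1, 2 and 3, with a mean of 172 kb ± 13.4 (SD, n = 3). They reached 90% at 358, 336 and 392 kb, a mean of 362 kb ± 28.4. The first 50% of the span had 11554 reads in replicate 1, 2508 in replicate 2 and 5259 in replicate 3, against 1436, 262 and 919 in the second 50%. The log2 ratio was 3.01, 3.26 and 2.52, a mean of 2.93 ± 0.38 (SD, n = 3; p = 0.25 by an exact sign-flip test, two-sided, the smallest p that 3 replicates allow). The first part was higher in 3 of 3 replicates.

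**Figure D1:**
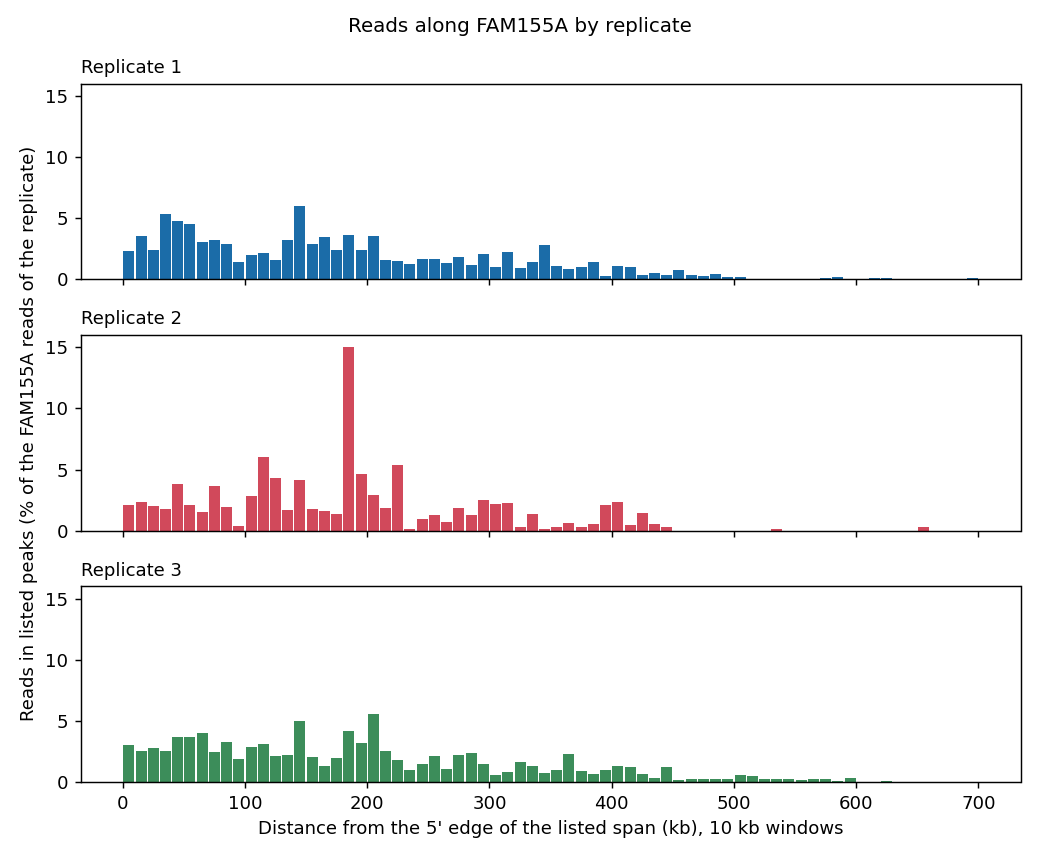
Reads in FAM155A peaks per 10 kb window (vertical axis, percent of the replicate's FAM155A reads) by distance from the 5' edge of the listed span (horizontal axis, kb), with a panel for each of the 3 replicates and a bar for each window. Reads fill the first 450 kb in every replicate, and replicate 2 has a single window at 180 to 190 kb with 15.1% of its reads.

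Replicate 2 departed most from the others in a 10 kb stretch. This stretch, chosen after its values were seen, runs from 180 to 190 kb from the 5' edge, chr13:108328284-108338283. Replicate 2 had 42 peaks with 417 reads there, 15.1% of its FAM155A reads. Replicate 1 had 49 peaks with 471 reads, or 3.63%, and replicate 3 had 18 peaks with 257 reads, or 4.16%. An even spread over the span would put 1.43% of the reads in each such window. The stretch was also densely covered in replicate 2, with 28.2% of its bases under a peak, against 22.0% in replicate 1 and 19.0% in replicate 3. Without it, the window from 150 to 200 kb held 11.5%, 11.1% and 8.87% of the remaining reads in replicates 1, 2 and 3, in place of 14.7%, 24.5% and 12.7%. The gene's share of the listed reads was then 1.70%, 2.17% and 1.53%. Other windows of 10 kb differed as well. Replicate 2 had 5.99% at 110 to 120 kb, against 2.19% in replicate 1 and 3.09% in replicate 3. At 220 to 230 kb it had 5.34%, against 1.51% and 1.81%. Replicate 1 was the highest at 340 to 350 kb, with 2.80% against 0.108% in replicate 2 and 0.761% in replicate 3.

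Across 70 windows of 10 kb, replicates 1 and 2 correlated with a Spearman rho of 0.826, replicates 1 and 3 with 0.886, and replicates 2 and 3 with 0.855. In the same order, Pearson r was 0.564, 0.845 and 0.654. Windows of 1 gene are not independent, the pairs share libraries, and no p was taken. Much of the rank agreement lay in the contrast between the covered and the nearly empty part. Over the 45 windows of the first 450 kb, rho was 0.530, 0.708 and 0.587, and r was 0.370, 0.710 and 0.508.

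Set against other gene IDs, FAM155A combined great length with dense peaks. Among gene IDs with at least 20 peaks and a span of at least 100 kb, FAM155A had 1.99 peaks per kb in replicate 1, against a median of 0.204 over 698 IDs. It had 0.536 in replicate 2, against 0.150 over 64 IDs, and 0.915 in replicate 3, against 0.146 over 657 IDs. No other ID of this length was denser in replicates 1 and 3, and 2 were denser in replicate 2. The closest were ENSG00000104313 with 1.36 peaks per kb in replicate 1 and ENSG00000122254 with 0.669 in replicate 3. With shorter spans included, 43, 29 and 24 IDs were denser than FAM155A, and the longest of them spanned 58.0, 135 and 66.4 kb. Peak number enters the share of reads by which the gene was chosen, so this standing is a description with no test. It also counts abutting peaks apart. With abutting peaks joined, FAM155A had 1.32, 0.508 and 0.853 peaks per kb in replicates 1, 2 and 3. The 1.32 is below the 1.36 of ENSG00000104313, whose peaks were not joined. Joined densities of other IDs are not given here.

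**Figure D2:**
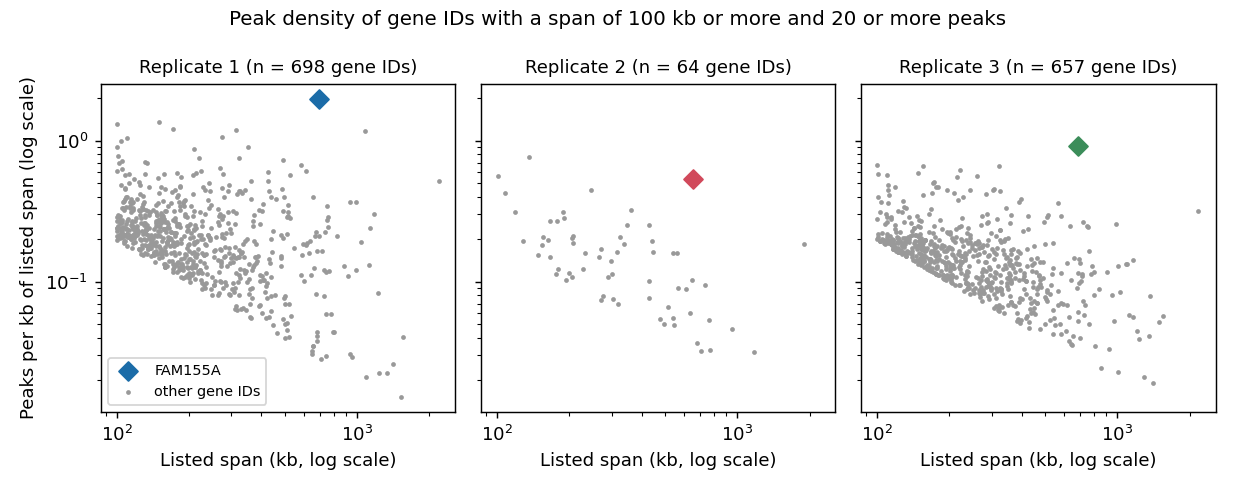
Peaks per kb of listed span (vertical axis, log scale) against the listed span in kb (horizontal axis, log scale) for gene IDs with a span of at least 100 kb and at least 20 peaks, by replicate. The diamond is FAM155A and the grey points are other gene IDs. With abutting peaks counted apart, FAM155A stands above every other ID in replicates 1 and 3 and below 2 in replicate 2.

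The other gene IDs of highest share were less dense. ENSG00000185565 (chr3:115521383-117715978, minus strand) had 0.518, 0.187 and 0.317 peaks per kb in replicates 1, 2 and 3. ENSG00000230590 (chrX:73238788-73512402, minus strand) had 1.06, 0.451 and 0.563, and ENSG00000145362 (chr4:113740306-114304950, plus strand) had 0.732, 0.161 and 0.360. They shared the weight at the 5' end. The first 50% of the span held a mean of 88.2% of the reads of FAM155A, 91.1% of ENSG00000185565, 91.8% of ENSG00000230590 and 95.6% of ENSG00000145362. The median over the 723 gene IDs that had at least 50 peaks and were listed in all 3 replicates was 55.4%, and 54 IDs were above FAM155A. Among the 82 of these with a span of at least 500 kb the median of the others was 73.9%, and 16 were above FAM155A.

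The shape along the gene was then set against other IDs. In 10 equal windows of the span FAM155A had means of 21.2%, 18.4%, 26.6%, 11.7%, 10.3%, 7.02%, 3.04%, 1.01%, 0.560% and 0.165% of its reads from 5' to 3'. The Pearson r between this profile and that of each of 722 other gene IDs had a median of 0.116, and 8 IDs were above 0.9. Over the 81 others with a span of at least 500 kb the median r was 0.387. The most alike was ENSG00000204131 (chrX:71289270-71359790, plus strand) with r = 0.944, over a span of only 70.5 kb. The next were ENSG00000018236 (chr12:41086509-41465191, plus strand) with 0.943, ENSG00000184384 (chr11:95710026-96076056, minus strand) with 0.927, ENSG00000182197 (chr8:118808878-119123508, minus strand) with 0.927, and ENSG00000170017 (chr3:105085820-105295808, plus strand) with 0.910. These correlations run over 10 windows from the same libraries and carry no p.

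The peaks themselves were narrower in replicate 1 than in replicates 2 and 3. Median width was 32 nt in replicate 1, 65 nt in replicate 2 and 69 nt in replicate 3, against 79, 72 and 69 nt for the peaks of all other gene IDs. Peaks shorter than 20 nt made up 30.1% of the FAM155A peaks of replicate 1 (418 of 1390), against 4.09% for the rest of that list. They numbered 1 of 351 in replicate 2 and 6 of 625 in replicate 3. Of the 698 long gene IDs of replicate 1, only 1 had a lower median width than FAM155A.

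Narrow peaks stood side by side. In replicate 1, 470 of 1389 neighbouring pairs of peaks (33.8%) abutted with no base between them, against 4.87% of pairs in other gene IDs. In replicate 2 it was 18 of 350 (5.14%), against 2.91%, and in replicate 3 it was 42 of 624 (6.73%), against 0.704%. Thus 707 peaks of replicate 1 stood in 237 runs of abutting peaks. A run of 10 pieces at chr13:108311003-108311209 spanned 207 nt, with pieces of 5 to 68 nt and 3 to 36 reads. The narrowest peaks of replicate 1 were 4 of a single base, the highest of them with 4 reads. No 2 peaks of the gene overlapped within a replicate. Among the long gene IDs, 1 of 698 had a higher percentage of abutting pairs in replicate 1. In replicates 2 and 3 it was 7 of 64 and 2 of 657, and the median over long IDs was 0% in each replicate. Other dense long IDs of replicate 1 shared the trait. ENSG00000131711 had 28.0% (median width 12 nt), ENSG00000172403 had 25.1% (46.5 nt) and ENSG00000104313 had 20.7% (52 nt). The long ID above FAM155A in replicate 1, ENSG00000092964, was less dense. It had 47.6% abutting pairs at 0.339 peaks per kb, with a median width of 71 nt.

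The short peaks of replicate 1 were unevenly spread. Of the 418, 165 lay in 5 windows of 5 kb that held 208 of its 1390 peaks, the others were spread over further windows, and 49 of the 110 windows with peaks had none. In the window from 15 to 20 kb all 38 peaks of replicate 1 were under 20 nt, with a median of 6 nt. There, 5 peaks of replicate 2 and 11 of replicate 3 had median widths of 52 and 65 nt. From 145 to 150 kb, 46 of 57 peaks were under 20 nt in replicate 1, against 0 of 6 in replicate 2 and 1 of 21 in replicate 3. From 195 to 200 kb it was 23 of 23, against 0 of 3 and 0 of 9. These windows were chosen after their values were seen.

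**Figure D3:**
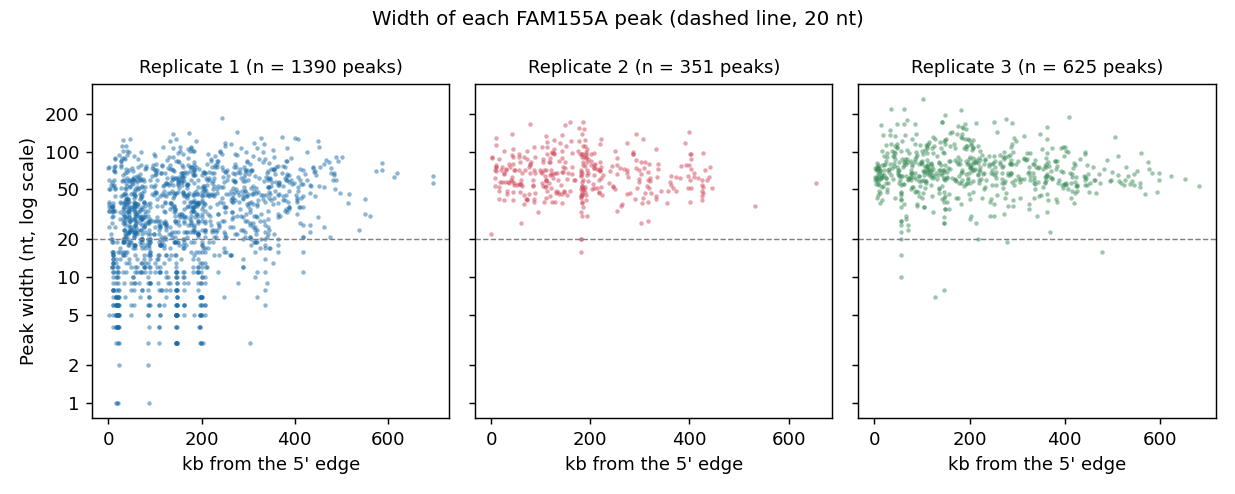
Width of each FAM155A peak in nt (vertical axis, log scale) against its distance from the 5' edge in kb (horizontal axis), by replicate, with a dashed line at 20 nt. Peaks under 20 nt form vertical columns in replicate 1, where they number 418, while replicates 2 and 3 have 1 and 6.

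A read long enough to map cannot fit inside such a short peak, and no source used here says whether a read that spans abutting peaks was counted in each. The reads were therefore also taken with abutting peaks joined and only the highest of the joined peaks counted. Replicate 1 then had 920 peaks with 9607 reads, replicate 2 had 333 with 2649 and replicate 3 had 583 with 5796. The gene's share of reads became 1.38%, 2.52% and 1.51%, and its mean of 1.80% was still the highest, before 1.60% for ENSG00000185565. In replicate 1 taken alone it was no longer the highest. ENSG00000157168, listed only in replicate 1, had a joined mean of 0.494% over the 3 replicates. All of this came from replicate 1, so its share there was above the 1.38% of FAM155A. Joined peaks had median widths of 51, 66 and 70 nt, so those of replicate 1 were still the narrowest.

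The gene IDs of the lists also carried different version numbers. FAM155A was listed as version 2 in replicate 1 and as version 1 in replicates 2 and 3. Replicates 2 and 3 had the same version for all 4640 gene IDs they shared. Replicate 1 had the same version as replicate 2 for 2526 of 4723 shared IDs and as replicate 3 for 4972 of 8808. The part of these versions in the peak widths was not tested.

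Reads per peak were above the median of the lists, as a description, since reads also chose the gene. The median was 6, 6 and 7 reads in replicates 1, 2 and 3, against 5, 4 and 4 for other gene IDs. Other IDs of high share were alike, with 7, 5 and 6 for ENSG00000185565 and 7, 6 and 7 for ENSG00000230590, and 104 of the 698 long IDs had a higher median in replicate 1. Peaks of at least 20 reads made up 9.35% of the gene's peaks in replicate 1, against 3.49% elsewhere. The values were 3.42% against 2.08% in replicate 2 and 10.1% against 0.577% in replicate 3. The marked stretch of at most 4 nt that the lists give for each peak lay inside its peak in every case. It was within 10 nt of the peak's centre for 82.4%, 87.2% and 84.0% of the peaks.

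The spaces between peaks varied along the gene. The median gap between neighbouring peaks was 67 nt in replicate 1, 442 nt in replicate 2 and 432 nt in replicate 3. In the first 50 kb it was 19, 376 and 333 nt, and from 400 to 450 kb it was 578.5, 718.5 and 823 nt. The windows between did not follow a steady order: the median gap was lowest at 50 to 100 kb in replicate 1 (8 nt), at 150 to 200 kb in replicate 2 (154 nt) and at 100 to 150 kb in replicate 3 (191 nt). Peaks covered 7.49%, 3.51% and 6.73% of the span, and 14.0% was covered in at least 1 replicate.

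With the replicates combined, the first 450 kb had no gap of 5 kb or more, and its first 200 kb had none above 3951 nt. All 15 gaps of at least 5 kb lay further 3'. The longest stretches with no peak in any replicate were chr13:107865568-107894341 (28.8 kb), chr13:107835039-107862383 (27.3 kb) and chr13:107905600-107918786 (13.2 kb). Within single replicates the longest gaps were 75.7 kb (chr13:107822421-107898109) in replicate 1, 124 kb (chr13:107862440-107986664) in replicate 2 and 30.5 kb (chr13:107835039-107865506) in replicate 3.

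The next comparison asked how often the same positions came back. Overlapping FAM155A peaks of the 3 replicates formed 1567 loci. Of these, 84 (5.36%) were hit in every replicate, while 306 (19.5%) were hit in 2 replicates and 1177 (75.1%) in a single one. Unequal lists limit these percentages, since replicate 2 had 351 peaks in the gene and replicate 1 had 1390. No such count over other gene IDs is given here, so the gene is set against them by clusters below. Loci hit in every replicate had 17.8%, 34.9% and 21.9% of the gene's reads in replicates 1, 2 and 3. With 351 peaks per replicate, the loci hit in every replicate numbered 32. Loci in 1 replicate held 46.9%, 32.3% and 34.5%. Median locus width was 134.5 nt for loci in all 3 replicates, 91 nt in 2 and 46 nt in 1, an order that joining overlapping peaks itself favours. Of the 1177 loci in a single replicate, 750 were of replicate 1, with a median of 33 nt. In the first 200 kb lay 63 of the 84 loci hit in every replicate, 194 of the 306 in 2 and 659 of the 1177 in 1. Peaks were also densest there, and dense peaks meet more often by position alone. These counts are thus not independent of density.

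Exact boundaries seldom recurred. No FAM155A peak had the same start and end in any pair of replicates. The same start occurred 1, 6 and 1 times and the same end 6, 8 and 2 times for replicates 1 and 2, 1 and 3, and 2 and 3. The centre of the marked stretch lay within 20 nt of that of a replicate 1 peak for 31.9% of replicate 2 peaks and 31.4% of replicate 3 peaks. Between replicates 2 and 3 it was 18.5% of replicate 2 peaks and 10.4% of replicate 3 peaks. No such values over other gene IDs are given here, so these describe FAM155A alone.

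FAM155A peaks overlapped another replicate more often than peaks of other gene IDs. In replicate 1, 46.0% of the gene's clusters (overlapping peaks merged) shared at least 1 nt with a cluster from elsewhere in the 3 lists (95% interval 43.4 to 48.7%), against 14.9% of the clusters of other gene IDs. In replicate 2 it was 60.4% (55.1 to 65.6%), against 34.9%, and in replicate 3 it was 53.9% (49.9 to 57.9%), against 16.6%. The difference was 31.1, 25.5 and 37.3 percentage points, a mean of 31.3 ± 5.94 (SD, n = 3). It was above 0 in 3 of 3 replicates (exact two-sided sign-flip test, p = 0.25, the smallest p that 3 replicates allow). Dense peaks meet more often by position alone, and density was part of how the gene was chosen, so the difference is not independent of that choice. Its mean was 17.1 points without replicate 1 and 19.9 without replicate 3, and with the gene held to its 351 peaks of most reads in each replicate, and other gene IDs at all theirs, it was 4.39 points in replicate 2.

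The excess was present in every class of reads per cluster. Among clusters of 3 to 4 reads, 39.0% of those of FAM155A were shared in replicate 1, against 8.63% elsewhere. The values were 42.6% against 25.7% in replicate 2 and 35.7% against 10.1% in replicate 3. Among clusters of 20 reads or more they were 60.8% against 38.4%, 91.7% against 69.1% and 87.3% against 70.0%, over 130, 12 and 63 FAM155A clusters. The FAM155A clusters of replicate 1 were narrower than the others in each class, with medians of 17 nt against 68 nt for 3 to 4 reads and 82.5 nt against 133 nt for 20 or more.

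**Figure D4:**
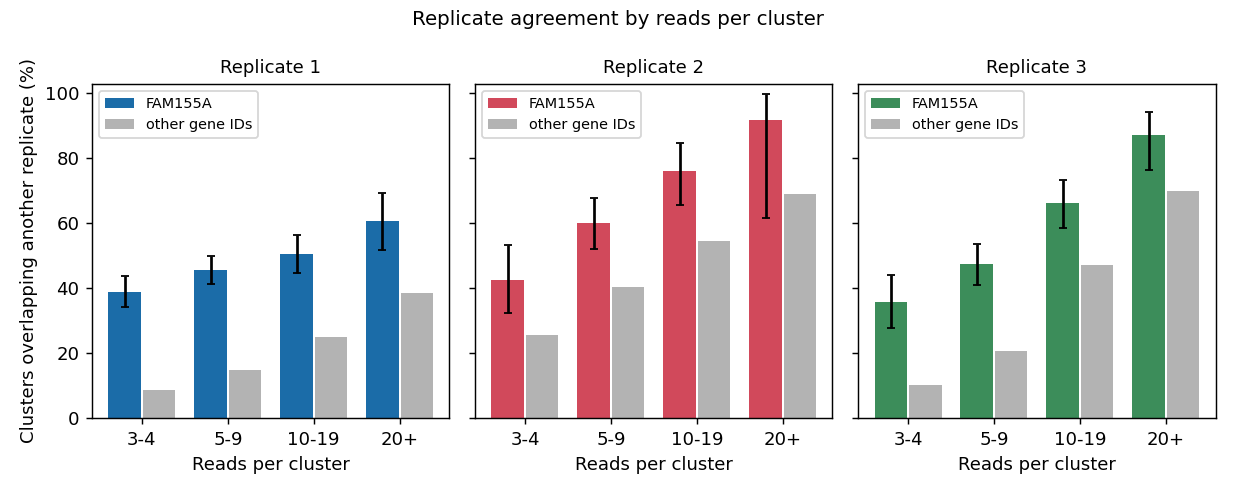
Percent of clusters that overlap a cluster of another replicate (vertical axis) by reads per cluster (horizontal axis), by replicate; coloured bars are FAM155A with exact 95% intervals, and grey bars are all other gene IDs. FAM155A is higher in each of the classes, from 39.0% against 8.63% for 3 to 4 reads in replicate 1 to 87.3% against 70.0% for 20 or more in replicate 3.

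Among the long gene IDs described above, few had a higher percentage of shared peaks than FAM155A. In replicate 1 there were 2 of 698, in replicate 2 there were 5 of 64, and in replicate 3 there were 5 of 657. The medians of these IDs were 10.0%, 42.5% and 10.8%. Across the IDs this percentage rose with peaks per kb, with a Spearman rho of 0.450, 0.303 and 0.484 and a Pearson r on log2 density of 0.495, 0.334 and 0.522. These are given as descriptions, since IDs share libraries. The less dense ENSG00000185565 had 33.4%, 54.4% and 41.6% shared, and ENSG00000230590 had 42.1%, 55.9% and 60.5%, the last of them above FAM155A in the same replicate.

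Where loci were shared, their read numbers agreed only loosely. Over the 163 loci in replicates 1 and 2 the Spearman rho of reads was 0.192, over 276 loci in replicates 1 and 3 it was 0.391, and over 119 loci in replicates 2 and 3 it was 0.202. The Pearson r on log2 reads was 0.179, 0.427 and 0.234. At the 84 loci in all 3 replicates the highest share was a median of 3.76 times the lowest, and 30 loci stayed within 3-fold. The share was highest in replicate 2 for 56 loci, in replicate 3 for 16 and in replicate 1 for 12. A listed peak has at least 3 reads, which is 0.108% of the gene's reads in replicate 2. In replicates 1 and 3 it is 0.0231% and 0.0486%. Loci that must be listed in replicate 2 thus start from a higher share there. Neither these counts nor the ratio of highest to lowest share is independent of that selection.

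The strongest locus of the 84 was chr13:108375540-108375881, 143 kb from the 5' edge. It had 80 reads in 8 peaks in replicate 1, 31 reads in 2 peaks in replicate 2 and 42 reads in 3 peaks in replicate 3. As a share of the gene's reads these were 0.616%, 1.12% and 0.680%, a mean of 0.805% ± 0.274 (SD, n = 3). The 342 nt of this locus were thus listed as separate peaks in each library.

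Of the next 9 loci, 3 lay within the stretch from 180 to 190 kb, where replicate 2 was high. The locus chr13:108334793-108334951 had 52, 42 and 26 reads, or 0.400%, 1.52% and 0.421%. Its neighbour chr13:108334637-108334792 had 28, 28 and 16 reads, or 0.216%, 1.01% and 0.259%. At chr13:108337156-108337369 there were 50, 27 and 32 reads, or 0.385%, 0.975% and 0.518%. Replicate 2 was the highest at each of these.

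Replicate 1 was highest at chr13:108474726-108474882, with 203 reads or 1.56%, against 10 reads (0.361%) in replicate 2 and 21 reads (0.340%) in replicate 3. Replicate 3 was highest at chr13:108316119-108316420, with 86 reads or 1.39%, against 33 (0.254%) in replicate 1 and 17 (0.614%) in replicate 2. At chr13:108267577-108267859 the replicates had 105, 12 and 39 reads, or 0.808%, 0.433% and 0.631%, a mean share of 0.624% ± 0.188. The most even of the 10 was chr13:108341499-108341778, with 57, 11 and 35 reads or 0.439%, 0.397% and 0.567%. The last of the 10 were chr13:108432403-108432523, with a mean share of 0.525% ± 0.302, and chr13:108311003-108311148, with 0.473% ± 0.214. Replicate 1 was highest at both. The former had 0.747%, 0.181% and 0.647% in replicates 1, 2 and 3, and the latter 0.708%, 0.289% and 0.421%.

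**Figure D5:**
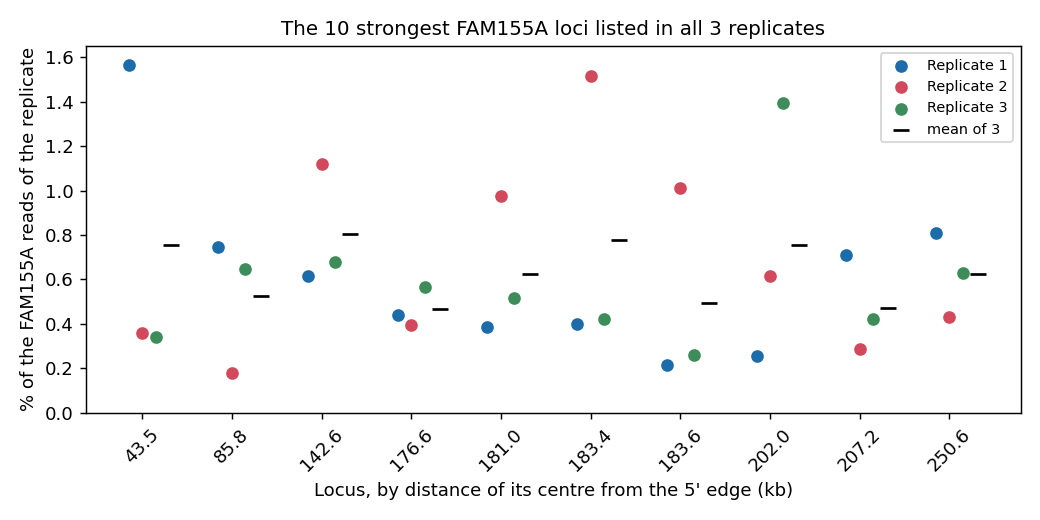
Share of the FAM155A reads (vertical axis, percent) at the 10 loci of highest mean share among those listed in all 3 replicates, ordered by distance of the locus centre from the 5' edge (horizontal axis, kb); points are replicates and the dash is their mean. Replicate 2 is highest at the 3 loci between 181 and 184 kb and at 142.6 kb. Replicate 1 is highest at 43.5, 85.8, 207.2 and 250.6 kb, and replicate 3 at 176.6 and 202.0 kb.

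Some strong peaks had little or no counterpart. The peak with the most reads in replicate 2, chr13:108296171-108296296, had 67 reads or 2.42% of its FAM155A reads, and no peak was listed there in replicates 1 and 3. The next loci listed in only 1 replicate were chr13:108311384-108311489 with 37 reads in replicate 3 and chr13:108400121-108400209 with 16 reads in replicate 2. The highest peak of replicate 1, chr13:108175060-108175129, had 159 reads and stood in a locus with 182 reads in replicate 1, 3 in replicate 2 and none listed in replicate 3. The highest of replicate 3, chr13:108491642-108491739, had 55 reads, with 26 in replicate 1 and none listed in replicate 2. These 3 highest peaks were picked after their values were seen.

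Within the span a single further gene ID was listed, ENSG00000227248, also on the minus strand. Its peaks ran from chr13:108440715 to chr13:108487751, a stretch of 47.0 kb near the 5' end of FAM155A. All of its 134, 28 and 56 peaks in replicates 1, 2 and 3 overlapped a FAM155A peak of the same replicate. It therefore lists the same positions again. In replicates 1, 2 and 3 this stretch had 267, 47 and 83 peaks listed under FAM155A with 2614, 311 and 934 reads, against 1626, 160 and 659 reads under ENSG00000227248. It held 20.1%, 11.2% and 15.1% of the FAM155A reads, and to which transcript they belong cannot be told apart.

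The same positions were not delimited in the same way under both IDs. Identical coordinates were found for 36 peaks in replicate 1, none in replicate 2 and 6 in replicate 3, and read numbers were equal for 35 of the 36 and all of the 6. FAM155A peaks in the stretch that had no counterpart under ENSG00000227248 numbered 128, 19 and 27. They were low, with a median of 5, 4 and 4 reads, against 10, 8 and 12.5 for those with a counterpart.

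No peak was listed on the plus strand within the span in any replicate. Beyond the span, the gene IDs within 1 Mb on either side had 31, 2 and 19 peaks in all, against 1390, 351 and 625 for FAM155A. The RefSeq table for GRCh38.p14 places 6 other genes in or across NALF1, among them SNORD31B, MIR1267 and NALF1-IT1. None of these could be tied to an ID or a position of the lists.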

How the data were processed

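The 3 deposited lists hold 1 peak per line in 8 columns without a header, 1 list per biological replicate. Per the submitters' processing notes the build was hg19, and FastQC, STAR, SAMtools and bedtools were used (no versions given). Which caller, settings and annotation made the peaks is not given in the sources used here. Each deposited p-value was taken as the authors gave it and used only for a filter and for breaking ties. The last number of each peak name was read as reads.

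Peaks were taken by gene ID, with Python 3.11.15, pandas 2.3.3, numpy 2.4.6 and scipy 1.17.1. Clusters and loci joined same-strand peaks that shared 1 nt or more, and abutting peaks were kept apart. Positions along the gene used the peak's midpoint. Planned comparisons over replicates used exact two-sided sign-flip tests. The overlap and merging steps were tested on simulated data. Depth beyond listed reads is unknown.

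The gene, the other IDs named and the lists of genes were chosen with earlier results of these data known. The rule named FAM155A, the next 3 IDs by mean share listed in all 3 replicates, the 5 most alike profiles, the 10 strongest loci in all 3 replicates, the 3 strongest in 1 and the 3 longest gaps. Gene IDs were not paired with symbols (0 matched), so the NALCN list and cell markers were not used here. Sequence under the peaks was not used here, since no hg19 genome was at hand.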

Additional observations from a re-analysis of the deposited data

Results flagged for a closer look

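Each peak name carries a running number that rises along the chromosome within the gene ID, and some numbers have no listed peak. The comparisons above did not use these numbers. In FAM155A, 57.6% of the numbers up to the highest had no peak in replicate 1 (1885 of 3275), 35.9% in replicate 2 (197 of 548) and 32.3% in replicate 3 (298 of 923), against 54.4%, 60.2% and 52.6% over all gene IDs. In the first 200 kb, numbers without a peak made up 63.9% in replicate 1, 31.3% in replicate 2 and 23.1% in replicate 3. Beyond 200 kb they made up 35.2%, 42.8% and 40.8%. Among the long gene IDs, 373 of 698 had a lower percentage than FAM155A over the whole gene in replicate 1. In replicates 2 and 3 it was 1 of 64 and 53 of 657. There was no control library to set these values against. What the missing numbers stand for was not tested.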

How the results depend on the processing

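Of 64 alternative values of the 7 main results, 53 kept their call. For values with a test this means the same sign and the same side of the threshold, for values without one a move of less than 1 SD of the replicates, and for counts one within 1.5 times. With 3 replicates or fewer the sign-flip p cannot fall below 0.25, so a tested value could change its call only by its sign. A fall in size, such as that from 31.3 to 17.1 points below, was therefore counted as kept. The other 11 moved further, and 0 changed sign. The 57 planned ones were supplemented by joining abutting peaks, an alternative chosen after seeing the data. The count of 84 loci in all 3 replicates was 40 with marked stretches within 20 nt and 32 with 351 peaks per replicate, and loci in both replicates left numbered 121 to 274 when 1 was left out, with 274 without replicate 2 and 162 without replicate 3. The share of listed reads was 2.58% with the lower 50% of p-values in each list and 2.59% with peaks of at least 5 reads, against 1.97%. The mean rank correlation of 0.855 was 0.817 in 5 kb and 0.892 in 20 kb windows, and 0.826 to 0.886 with 1 replicate left out. The first window held 6.28% of the reads at 25 kb and 28.4% at 100 kb, as its size implies. The excess in replicate agreement of 31.3 points was 17.1 without replicate 1, 28.4 without replicate 2 and 19.9 without replicate 3. With 351 peaks of the gene per replicate it was 22.3, and 4.39 in replicate 2 alone, where the other gene IDs were not reduced. The mean density of 1.15 peaks per kb was 0.725 without replicate 1. The causes were not tested. No paired analysis was possible because there is a single group. Only listed peaks, of at least 3 reads, can be seen, so a position without a peak need not lack signal.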
